A study of Volvox carteri with 12 samples.

Results

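Among transcribed loci of the green alga Volvox carteri that could be followed in both of its cell types, 41 had a lower RNA level under ultraviolet B light (UV-B) in each of 3 pairs of somatic cell libraries. These 41 loci, called the falling loci here, are 41 of 9593 loci matched across the deposited tables. A locus is a gene row of 1 table linked to the rows of the other tables that overlap it by at least 80% of the longer row, with exactly 1 row in each of 11 tables. A falling locus had a mean of 5 to under 100 FPKM (sequenced fragments scaled to transcript length and to the number of mapped fragments) over the 6 somatic libraries, and a somatic mean between 0.2 and 5 times its gonidial mean. It also had at least 1.4 times more FPKM in white light than under UV-B in somatic pairs A, B and C alike. Values were first divided by a factor for each library, the median of its ratios to the average library, and all FPKM values below are on that scale. The level limits held 3173 loci, and the falling loci were 1.29% of them. Another 69 loci within the limits were at least 1.4 times higher under UV-B in each pair.

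Volvox spheroids hold many small, swimming somatic cells, which have left the division cycle, and a few large reproductive cells, the gonidia, which divide to form the next generation. Light energy is gathered by both cell types, but the somatic cells form the outer layer of the spheroid and carry the eyespots. UV-B damages DNA and the photosynthetic machinery of green algae, and it is also sensed as a signal, in Chlamydomonas and land plants through the photoreceptor UVR8. The tables pair no locus with a gene name or function, so the falling loci are described by position, level and change.

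All libraries came from the wild-type strain Eve10 of Volvox, grown synchronously under vegetative conditions and taken once matured but before embryos formed. The 4 groups were UV-B somatic cells and white-light somatic cells (replicates A, B and C each), UV-B gonidia (B and C used here) and white-light gonidia (A, B and C). The UV-B exposure lasted 1 h at 0.056 mW/cm2, and the other cultures had white light without it. The labels call the replicates biological but do not say what libraries with the same letter share. The table of UV-B gonidia A had none of its 4073 reference rows above 0 and was left out, so the gonidial comparison rests on n = 2 UV-B libraries against n = 3 white-light libraries. No gene names were paired with rows, and the cell type labels were not checked against marker genes. As a measure of mixture, 459 loci with at least 20 FPKM in somatic cells and at least 5 times the gonidial level were followed in the gonidia libraries. Their median level there, relative to the somatic mean, was 18.9% in UV-B gonidia B and 3.18% in UV-B gonidia C, against 5.83%, 19.3% and 3.35% in white-light gonidia A, B and C. Both B libraries of gonidia thus held more RNA of somatic-specific loci than the others, whichever the light. These loci were picked from the same libraries. The reverse measure, 386 gonidia-specific loci in somatic libraries, was 9.78%, 6.92% and 7.31% in UV-B somatic A, B and C, against 10.5%, 6.89% and 7.90% in the white-light libraries. In libraries of this kind, fewer cells of a type and less RNA per cell cannot be told apart.

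In somatic cells the falls were mostly moderate, and few loci lost much more than the choice required in every pair. The choice fixed this direction, so the somatic values are a description and carry no test. The median ratio of white light to UV-B over the 41 loci was 1.62 in pair A, 1.71 in pair B and 1.58 in pair C. On the log2 scale (UV-B over white light) the medians were -0.69, -0.77 and -0.66, against -0.043, -0.050 and -0.045 over all loci within the level limits. The single ratios ran up to 3.02 in pair A, 4.03 in pair B and 5.602 in pair C. The largest of a locus's 3 ratios lay in pair B for 19 loci, in pair C for 12 and in pair A for 10. The smallest of the 3 ratios was under 1.5 for 24 loci and at least 1.7 for 7. In 32 of the 41 loci (78%) every UV-B somatic library lay below every white-light somatic library, which held for 8.73% of the loci within the level limits. For the other 9 the groups overlapped and only the libraries of the same letter kept the order. An example is the locus on scaffold 81 (230150 to 236161), with 13.2, 3.62 and 5.10 FPKM in UV-B somatic A, B and C, against 19.2, 11.9 and 7.90 FPKM in white-light somatic A, B and C.

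**Figure D1:**
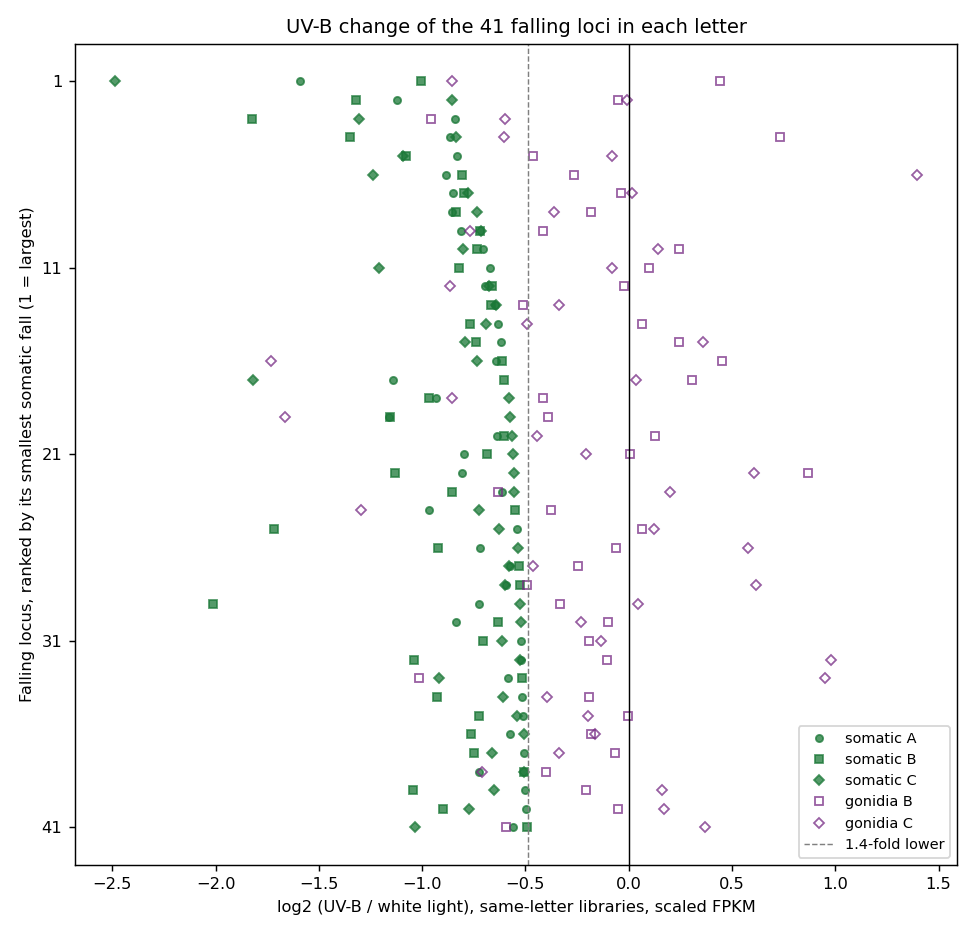
Log2 ratio of UV-B to white light (scaled FPKM, libraries of the same letter) for each of the 41 falling loci, ranked from top to bottom by the smallest of its 3 somatic falls; filled symbols are somatic pairs A, B and C and open symbols are gonidia pairs B and C. All somatic symbols lie left of the dashed line at 1.4-fold lower, as the choice required, while the gonidia symbols lie on both sides of 0, from -1.73 to 1.397.

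The 8 loci with the highest smallest ratio showed how far the falls went. The locus on scaffold 22 (1938650 to 1951796) had 3.45, 5.40 and 2.01 FPKM in UV-B somatic A, B and C, against 10.4, 10.9 and 11.2 FPKM in white-light somatic A, B and C. It was the only one with a ratio of at least 2 in each pair. Here the white-light libraries were close together and the UV-B libraries were not. Its RNA in gonidia was equally uneven, with 8.85 and 3.29 FPKM in UV-B gonidia B and C, against 1.42, 6.51 and 5.94 FPKM in white-light gonidia A, B and C.

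The locus on scaffold 9 (1879487 to 1885461) had 8.53, 9.24 and 10.6 FPKM in UV-B somatic A, B and C, against 18.5, 23.0 and 19.2 FPKM in white-light somatic A, B and C. In gonidia it had 17.1 and 16.6 FPKM in UV-B B and C, against 17.9, 17.7 and 16.7 FPKM in white-light A, B and C. The somatic groups were far apart, and the gonidia groups nearly coincided (limma log2 change -0.04 ± 0.17 SE, adjusted p = 1 by the Benjamini-Hochberg method). The locus on scaffold 55 (160596 to 164805) had 19.0, 17.5 and 16.9 FPKM in UV-B somatic A, B and C, against 34.2, 30.4 and 28.9 FPKM in white-light somatic A, B and C. Within each light these somatic values were close together. Its gonidial level was lower than its somatic level in both lights, at 6.07 and 4.19 FPKM in UV-B B and C, against 3.93, 6.22 and 4.15 FPKM in white-light A, B and C. Gonidia libraries of the same letter were almost equal, with a ratio of UV-B to white light of 0.976 in B and 1.01 in C.

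Scaffold 14 carried 3 falling loci at wide distances. The first (395293 to 414173) had 17.1, 13.1 and 28.7 FPKM in UV-B somatic A, B and C, against 30.5, 46.5 and 71.0 FPKM in white-light somatic A, B and C. Its rows began at 395271, 395256 and 396693 in the UV-B somatic tables A, B and C, against 392028, 391885 and 392019 in the white-light somatic tables, so the lower level went with a shorter assembled row. Other rows covered 100%, 0.866% and 100% of the locus in UV-B somatic A, B and C. In white-light somatic A, B and C they covered 0%, 100% and 0.948%. Their FPKM was 56.7, 33.3 and 56.1 under UV-B, against 0, 55.6 and 12.5 in white light. Their part in the fall was not tested. The locus from 2190252 to 2198995 had 15.7, 15.5 and 15.3 FPKM in UV-B somatic A, B and C, against 28.6, 39.5 and 27.3 FPKM in white-light somatic A, B and C. Its UV-B somatic values were almost equal, and the gap was widest in pair B. In gonidia it had 23.8 and 9.34 FPKM in UV-B B and C, against 16.6, 14.3 and 14.2 FPKM in white-light A, B and C.

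Of the last 3 of the 8, the locus on scaffold 27 (479901 to 483585) had 4.54, 5.25 and 3.99 FPKM in UV-B somatic A, B and C, against 8.08, 11.1 and 8.53 FPKM in white-light somatic A, B and C. A short reference row on scaffold 3 (Vocar20012655m.g.2.0, 581810 to 582027) had 3.16, 3.98 and 3.77 FPKM in UV-B somatic A, B and C, against 5.85, 6.98 and 8.89 FPKM in white-light somatic A, B and C. At a length of 218 bp this row rested on as few as 3.996 implied fragments in a somatic library, the fewest of the 41. The reference row Vocar20009117m.g.2.0 on scaffold 1 (1215968 to 1218640) had 9.93, 5.88 and 6.51 FPKM in UV-B somatic A, B and C, against 17.98, 10.5 and 10.8 FPKM in white-light somatic A, B and C. Library A was high in both lights, and UV-B A nearly reached the white-light values of B and C.

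The falls were not limited to weak loci. The highest somatic level was that of scaffold 26 (913408 to 917822), with 48.7, 67.5 and 75.6 FPKM in UV-B somatic A, B and C, against 80.3, 95.7 and 107 FPKM in white-light somatic A, B and C. Next came scaffold 49 (7658 to 10252), with 53.0, 40.1 and 46.6 FPKM in UV-B somatic A, B and C, against 101, 78.4 and 69.7 FPKM in white-light somatic A, B and C. For both loci the highest UV-B library stayed under the lowest white-light library. In each somatic library another row covered 40.4% to 45.4% of the scaffold 49 locus, and the FPKM of that row was also lower under UV-B in each pair. How fragments were divided between these rows was not tested. The reference row Vocar20005691m.g.2.0 on scaffold 11 (220254 to 222327) had 42.9, 45.0 and 32.8 FPKM in UV-B somatic A, B and C, against 63.9, 64.9 and 49.1 FPKM in white-light somatic A, B and C. The locus on scaffold 3 from 4814529 to 4827422 had 27.4, 25.3 and 33.0 FPKM in UV-B somatic A, B and C, against 42.8, 38.7 and 54.9 FPKM in white-light somatic A, B and C. In both of these the ratio of white light to UV-B varied little between pairs, from 1.44 to 1.66 over the 2 loci, although the level did.

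Fragment numbers behind the somatic values differed between loci. The confidence limits in the deposited tables imply a median of 746 to 1343 fragments per falling locus in the somatic libraries, under the assumption that the limits hold counting error only. With these limits, the lower end of the white-light to UV-B ratio stayed above 1 in all 3 pairs for 40 of the 41 loci, the exception being the short row on scaffold 3. It stayed above 1.4 in all 3 pairs for 14 loci. Both counts use the ratios on which the loci were chosen, so they describe the loci and support nothing further. The intervals cover counting error only and not the spread between cultures.

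The threshold of 1.4 passes through a continuum. Just inside it, the locus on scaffold 1 from 12550390 to 12554483 had a smallest ratio of 1.41, that on scaffold 32 from 101567 to 107758 had 1.41 and that on scaffold 1 from 6084910 to 6095755 had 1.42. Just outside, the loci on scaffold 13 (1338125 to 1342833), scaffold 56 (515193 to 521017) and scaffold 16 (Vocar20001030m.g.2.0, 1338799 to 1342050) had 1.399, 1.395 and 1.394. A threshold of 1.2 would have given 191 loci and a threshold of 2 would have given 1. Requiring every white-light library to be at least 1.4 times every UV-B library, with no use of the letters, left 8 of the 41. The scaling also mattered. The factor of a UV-B somatic table was 1.10, 1.10 and 1.05 times that of the white-light table in A, B and C, and without scaling the rule found 21 loci, of which 18 were among the 41 (43.9% of the falling loci and 85.7% of those found).

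Leaving 1 pair out of the ratio rule shows the somatic change in a pair that was not used to pick the loci. Loci within the level limits that were at least 1.4 times lower under UV-B in 2 pairs numbered 97, 102 and 108 when A, B and C were left out. In the pair left out, 42.3%, 40.2% and 37.96% of them were at least 1.4 times lower as well, against 11.4%, 14.7% and 10.8% of all loci within the limits. Conversely, 6.19%, 6.86% and 9.26% of them were at least 1.4 times higher in that pair, against 10.1%, 12.5% and 11.1% of all loci within the limits. The median log2 change in the pair left out was -0.37, -0.37 and -0.35. A fall seen in 2 pairs was seen in the remaining pair more often than over all loci, but in most cases it did not reach 1.4-fold there. The level limits and the scaling still used all libraries. Among loci that no other row covers by more than 10%, the shares were 41.2%, 44.7% and 42.9%, against 10.1%, 14.9% and 9.95%. The loci counted as lower there were the same 21 falling loci each time.

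**Figure D2:**
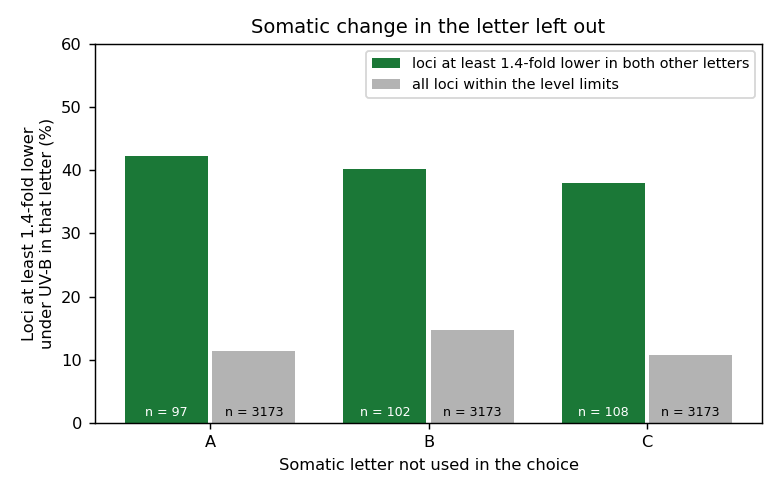
Share of loci at least 1.4-fold lower under UV-B in the somatic pair that was left out of the choice (per cent, bars from 0): green, loci at least 1.4-fold lower in both other pairs (97, 102 and 108 loci); grey, all 3173 loci within the level limits. The green bars stand at 42.3%, 40.2% and 37.96%, against grey bars of 11.4%, 14.7% and 10.8%. The loci counted as lower in the green bars are the 41 falling loci each time.

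Most falling loci were more strongly expressed in somatic cells than in gonidia. Their median level was 17.9 FPKM over the somatic libraries and 7.51 FPKM over the gonidia libraries. The median of the somatic to gonidial ratio was 3.12, against 1.17 over all loci within the level limits. The somatic mean was the higher one for 34 of 41 loci (82.9%), against 58.3% of the loci within the limits, and at least 3 times the gonidial mean for 21 (51.2%), against 10.3%. The white-light somatic values enter both this ratio and the choice on the UV-B fall, so the ratio was also taken under UV-B alone. There its median was 2.02 against 1.16, and it was at least 3 for 11 loci (26.8%) against 8.92%. In white light alone it was 3.53 against 1.17. All of these are descriptions, since the limits of 0.2 and 5 and the somatic fall were set by the choice.

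**Figure D3:**
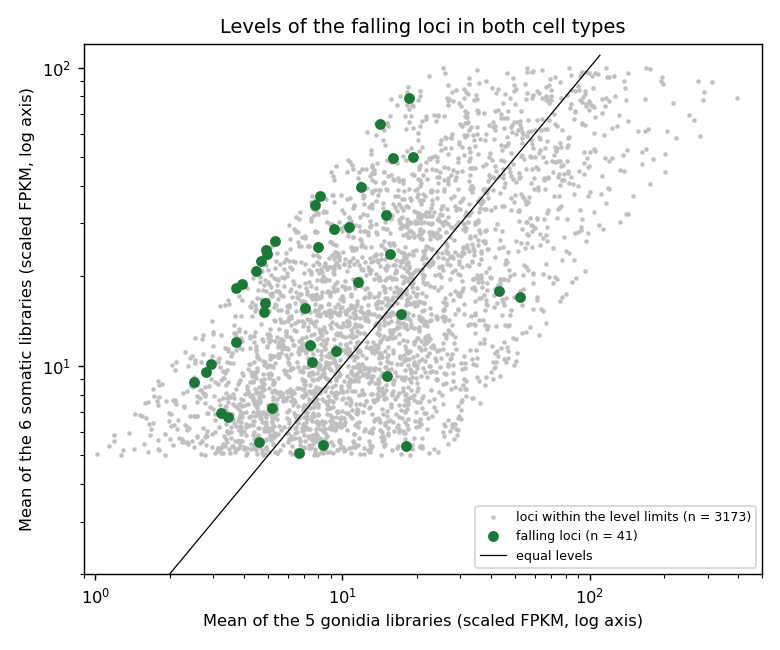
Mean level over the 6 somatic libraries against mean level over the 5 gonidia libraries (scaled FPKM, both axes log) for the 41 falling loci (green) and the 3173 loci within the level limits (grey); the line marks equal levels. Of the falling loci, 34 lie above the line and 7 below it, and many of the 34 lie near the upper bound of 5.

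The 7 loci with the higher gonidial mean included a pair of adjoining reference rows on scaffold 51. Vocar20011987m.g.2.0 (291238 to 292019) had 18.7, 8.02 and 16.0 FPKM in UV-B somatic A, B and C, against 26.9, 13.1 and 24.5 FPKM in white-light somatic A, B and C. In gonidia it had 23.3 and 51.5 FPKM in UV-B B and C, against 56.4, 26.6 and 56.6 FPKM in white-light A, B and C. Its neighbour Vocar20012033m.g.2.0 (291969 to 293614) had 29.0 and 59.6 FPKM in UV-B gonidia B and C, against 66.4, 30.5 and 75.4 FPKM in white-light gonidia A, B and C. In both rows the gonidia B libraries were the lowest in either light. The rows share 51 bp, and how the authors' software divided fragments between them was not tested. On scaffold 11 the locus from 2637141 to 2639497 showed the same order in gonidia, with 7.30 and 26.4 FPKM in UV-B B and C, against 22.7, 11.3 and 23.0 FPKM in white-light A, B and C.

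In gonidia, whose contrast was not part of the rule, no falling locus passed the test in either direction. That contrast is not fully separate from the choice. Gonidia libraries held RNA of somatic-specific loci, and somatic RNA in them would carry the fall that the choice fixed. How much it did so was not tested. The test was limma on log2(FPKM + 1) with all 11 libraries, with p-values adjusted by the Benjamini-Hochberg method over the 7540 loci that had at least 1 FPKM in at least 3 libraries, and all 41 falling loci were among these. At adjusted p under 0.05, 1 of the 7540 loci was lower (0.0133%) and 0 were higher (0%), and neither count holds a falling locus. With the +1, changes of low loci are understated. At an unadjusted p under 0.05, 2 of the 41 were lower (4.88%), against 0.836% of all loci tested and 0.504% within the level limits. Just 1 of the 41 was higher (2.44%), against 0.955% and 0.725%. The median limma change was -0.056 over the falling loci and 0.00070 over all loci tested. That median rests on single libraries. It was -0.30 without UV-B gonidia B, 0.29 without UV-B gonidia C and 0.090 without white-light gonidia B. Over all loci tested the median was -0.087, 0.062 and 0.027 in these settings.

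Within letters, more of the falling loci were lower under UV-B than of the loci within the level limits, but the changes were small and differed between the pairs. No test was made over the list. In gonidia pair B, 29 of 41 were lower under UV-B (70.7%), against 51.6% of the loci within the level limits. In pair C, 25 of 41 were lower (61%), against 54%. In both pairs 18 were lower (43.9% against 29.5%), 5 were higher (12.2% against 22.8%) and 18 differed in opposite directions. The median log2 change was -0.11 in pair B, against -0.0088 within the limits, and -0.16 in pair C, against -0.032. At least 1.4 times lower were 6 loci in pair B (14.6% against 5.64%) and 11 in pair C (26.8% against 9.05%). At least 1.4 times higher were 2 loci in pair B (4.88% against 7.12%) and 6 in pair C (14.6% against 8.26%). In pair C the shares of both were above those within the limits, and its UV-B library had the lowest median of implied fragments per falling locus, at 369. The falling loci were also weaker in gonidia than the loci within the limits. Their median gonidial level was 7.51 against 13.7 FPKM, and their median of implied gonidial fragments was 583 against 826. The part of this in the shares was not tested. In both pairs, 1 locus was at least 1.4 times lower (2.44% against 1.04%) and 1 at least 1.4 times higher (2.44% against 1.1%).

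**Figure D4:**
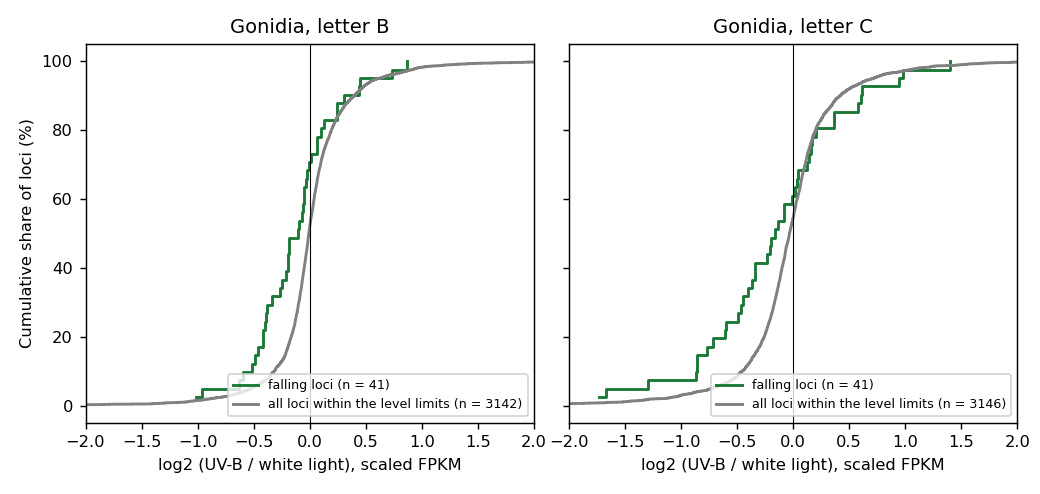
Cumulative share of loci (per cent) by log2 ratio of UV-B to white light in gonidia pairs B and C, for the falling loci (green) and the loci within the level limits (grey); loci at 0 in a library of the pair are not drawn, and the axis ends at 2 log2 units on either side. The green curves lie left of the grey ones over most of the lower range, with medians of -0.11 in pair B and -0.16 in pair C against -0.0088 and -0.032.

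Gonidial levels of the falling loci moved with the somatic-specific measure between letters. The median gonidial level of a falling locus, relative to its somatic mean, was 40.7% in UV-B gonidia B and 28.8% in UV-B gonidia C, against 31.7%, 41.1% and 29.4% in white-light gonidia A, B and C. The B libraries, with the most RNA of somatic-specific loci, were the highest in both lights. Within pairs that measure was nearly equal under UV-B and white light. Equal shares of somatic RNA would still carry the somatic fall fixed by the choice into a gonidia pair, and its part in the pairs was not tested. The limma contrast sets UV-B B and C against white-light A, B and C and so does not balance the letters, and the part of somatic RNA in its values was not tested. Among the 34 loci with the higher somatic level, 22 were lower under UV-B in pair B and 21 in pair C, with median log2 changes of -0.080 and -0.20. Of the 7 with the higher gonidial level, 7 were lower in pair B and 4 in pair C, with medians of -0.26 and -0.0067. The 7 include the scaffold 51 rows, which share 51 bp and are not independent. Over all loci within the level limits, 51.6% were lower in pair B and 54% in pair C. Shares split by the higher level are not given, so these counts are a description only.

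Separation between the gonidia groups was rare. All UV-B values lay below all white-light values in 4 of 41 loci (9.76%), against 4.63% of the loci within the limits, and above them in 1 (2.44%), against 4.88%. The lowest p belonged to the locus on scaffold 18 from 1643776 to 1662151, one of the 2 below 0.05 before adjustment. It had 11.1 and 7.46 FPKM in UV-B gonidia B and C, against 18.6, 14.6 and 23.7 FPKM in white-light gonidia A, B and C (log2 change -0.95 ± 0.27 SE, limma adjusted p = 1). Its somatic values were 6.04, 4.90 and 8.09 FPKM under UV-B in A, B and C, against 13.5, 10.9 and 12.0 FPKM in white light. It was lower under UV-B in all 5 pairs, by 1.31-fold in gonidia B and 3.17-fold in gonidia C. Its gonidial rows began at 1646859 and 1646419 in UV-B B and C, against 1645102, 1643776 and 1643776 in white-light A, B and C, so the assembled rows also differed.

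The first scaffold 14 locus (395293 to 414173) was the one at least 1.4 times lower in both gonidia pairs. The locus was covered by other rows by 11.9% and 2.13% in UV-B gonidia B and C. In white-light gonidia A, B and C it was covered by 2.51%, 4.33% and 100%. It had 5.22 and 4.98 FPKM in UV-B gonidia B and C, against 10.9, 10.1 and 7.54 FPKM in white-light gonidia A, B and C (log2 change -0.78 ± 0.38 SE, limma adjusted p = 1). Also on scaffold 14, the locus from 1393352 to 1396963 had 5.16 and 5.30 FPKM in UV-B gonidia B and C, against 8.78, 6.88 and 9.03 FPKM in white-light gonidia A, B and C (log2 change -0.56 ± 0.23 SE, limma adjusted p = 1). In somatic cells it had 12.9, 9.33 and 12.8 FPKM under UV-B in A, B and C, against 22.7, 15.4 and 20.97 FPKM in white light. No other row covers it by more than 10% in any library. The remaining locus with separate gonidia groups, on scaffold 42 (838964 to 843492), was chosen for mention after its values were seen. It had 10.7 and 10.02 FPKM in UV-B gonidia B and C, against 11.6, 12.2 and 13.2 FPKM in white-light gonidia A, B and C, a log2 change of -0.23 ± 0.17 SE.

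The 3 loci next in order of p on the lower side did not reach an unadjusted p under 0.05, and their gonidia groups overlapped. Scaffold 49 (7658 to 10252) had 15.6 and 7.60 FPKM in UV-B gonidia B and C, against 13.3, 20.9 and 13.7 FPKM in white-light gonidia A, B and C. Scaffold 11 (533489 to 544142) had 3.66 and 2.03 FPKM in UV-B gonidia B and C, against 3.03, 4.75 and 4.99 FPKM in white-light gonidia A, B and C. Scaffold 18 (2047156 to 2060574) had 5.34 and 2.91 FPKM in UV-B gonidia B and C, against 5.07, 5.42 and 5.31 FPKM in white-light gonidia A, B and C. In each of these the UV-B C library was the lowest of the 5 and UV-B B lay among the white-light values, and for the scaffold 18 locus only that 1 library was low.

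The locus on scaffold 28 (546002 to 560265) was the exception on the higher side. It had 18.2 and 12.9 FPKM in UV-B gonidia B and C, against 9.88, 9.95 and 8.51 FPKM in white-light gonidia A, B and C (log2 change 0.65 ± 0.24 SE, limma adjusted p = 1). In somatic cells it had 31.3, 21.1 and 34.7 FPKM under UV-B in A, B and C, against 54.7, 46.4 and 51.1 FPKM in white light. Every UV-B library was thus below the white-light libraries in somatic cells and above them in gonidia. The other 3 with the lowest p on the higher side had overlapping groups. Scaffold 26 (2020512 to 2027004) had 3.64 and 5.03 FPKM in UV-B gonidia B and C, against 2.09, 3.92 and 2.55 FPKM in white-light gonidia A, B and C. Vocar20012655m.g.2.0 on scaffold 3 had 9.09 and 10.7 FPKM, against 6.92, 10.9 and 4.08 FPKM, in the same libraries. The reference row Vocar20002522m.g.2.0 on scaffold 2 (494784 to 498163) had 5.72 and 3.21 FPKM, against 2.96, 4.84 and 2.91 FPKM. None of the 3 had an estimate of more than 2 standard errors.

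**Figure D5:**
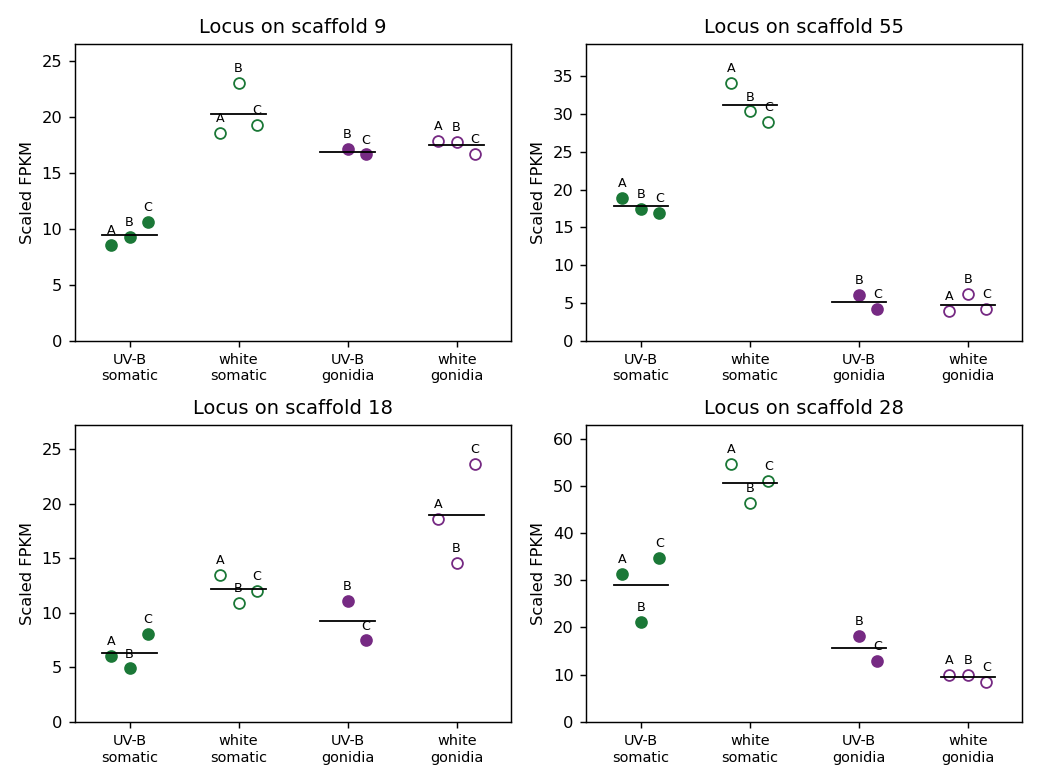
Scaled FPKM in every library for the falling loci on scaffold 9 (1879487 to 1885461), scaffold 55 (160596 to 164805), scaffold 18 (1643776 to 1662151) and scaffold 28 (546002 to 560265); points are libraries with their letter, filled for UV-B and open for white light, and bars are group means. UV-B somatic libraries lie below white-light somatic libraries in all panels, while in gonidia the groups coincide on scaffolds 9 and 55, are lower under UV-B on scaffold 18 and higher under UV-B on scaffold 28.

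When each letter was taken as a block within its cell type, 8 falling loci were lower and 1 was higher in gonidia at an unadjusted p under 0.05, against 2.81% and 2.15% of all loci tested, and 0 passed adjustment. The lowest p in that fit was that of scaffold 26 (913408 to 917822), at -0.52 ± 0.10 SE on the log2 scale (adjusted p = 0.88 by limma). It had 23.3 and 8.44 FPKM in UV-B gonidia B and C, against 16.5, 30.8 and 13.8 FPKM in white-light gonidia A, B and C, so UV-B was lower in each pair although the groups overlapped. The spread in that fit includes the somatic pairs, whose even falls were part of the choice. With the same block and the 5 gonidia libraries alone, 3 were lower (7.32%) and 1 was higher (2.44%) at an unadjusted p under 0.05, against 1.82% and 1.66% of all loci tested, and 0 passed adjustment.

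The assembled rows behind the falling loci were less uniform than most. Row ends agreed in all 11 tables for 3 of the 41 (7.32%), against 15.9% within the level limits, and 9 carried a reference ID (22.0% against 31.8%). The median length was 6190 bp, against 5072 bp. In pair A the UV-B somatic row was longer than the white-light row for 21 loci (51.2%, against 39.3% within the limits) and shorter for 16 (39.0% against 33.6%). Pair C had 22 longer (53.7% against 39.7%) and 14 shorter (34.1% against 33.3%). In pair B, 5 were longer (12.2% against 24.8%) and 28 shorter (68.3% against 47.7%). In all 3 pairs, 1 row was longer (2.44% against 6.81%) and 5 were shorter (12.2% against 9.11%). The change in length thus had no common direction over the pairs, and its part in the FPKM, which is taken per length, was not tested.

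Overlapping rows of the same table can take fragments from a locus. No other row covered 21 of the 41 (51.2%) by more than 10% in any library, against 52.9% within the level limits. For 4 of the 41 the summed FPKM of overlapping rows was higher under UV-B in all 3 somatic pairs, and for 7 it was lower. The 7 include the touching falling loci on scaffolds 32 and 51. Each of these has its falling neighbour among its overlapping rows, so part of that count follows from the choice. The 4 and the 7 thus cannot be weighed against each other, and shares within the level limits are not given. The 7 also include loci that touch no other falling locus, on scaffold 49 (7658 to 10252), scaffold 11 (533489 to 544142) and scaffold 26 (2020512 to 2027004). For scaffold 49 the overlapping rows had 40.4, 26.8 and 31.5 FPKM in UV-B somatic A, B and C. In white-light somatic A, B and C they had 72.0, 58.8 and 44.4 FPKM. The scaffold 22 locus was one of the 4, with 53.7, 4.87 and 65.5 FPKM in overlapping rows in UV-B somatic A, B and C, against 12.8, 2.84 and 17.8 FPKM in white-light somatic A, B and C. Those rows were higher under UV-B by more in pairs A and C, where the locus itself was lower by more. They covered only 2.65%, 2.50% and 18.3% of the locus in UV-B somatic A, B and C. In white-light somatic A, B and C they covered 3.43%, 2.37% and 5.82%. The other 3 were the scaffold 9 locus, the locus on scaffold 19 (221596 to 239261) and that on scaffold 11 (2637141 to 2639497). Their overlapping rows had at most 10.9 FPKM in any somatic library. For each of the 3 they exceeded the locus itself in some UV-B somatic libraries, but in no white-light somatic library. In UV-B somatic B they had 6.40 FPKM against 2.76 FPKM for the scaffold 11 locus. In UV-B somatic C they had 10.9 FPKM against 8.14 FPKM for the scaffold 19 locus. The part of such exchange between rows in the falls was not tested, and 5 loci had no overlapping row in any library.

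The falling loci lay on 26 scaffolds, and 8 scaffolds held more than 1, with 4 each on scaffolds 1 and 11. Pairs within 10 kb were found on scaffolds 32 and 51, and in both the rows touched. On scaffold 32 the locus from 94972 to 101686 had 24.9, 16.3 and 19.2 FPKM in UV-B somatic A, B and C, against 35.4, 26.9 and 27.9 FPKM in white-light somatic A, B and C. Its neighbour from 101567 to 107758 had 44.0, 31.4 and 38.4 FPKM in UV-B somatic A, B and C, against 62.2, 58.6 and 65.7 FPKM in white-light somatic A, B and C. The rows share 120 bp, so they are not independent. The matched loci next to the 41 on either side, 75 that were themselves not among them and had been tested, had median somatic log2 changes of -0.094, -0.18 and -0.17 in pairs A, B and C. Over all loci tested the medians were -0.055, -0.043 and -0.043. Of the 75, 50 lay within 10 kb. Of the 70 that did not overlap a falling locus, 8 were at least 1.4 times lower under UV-B in each pair (11.4%), against 2.49% of all loci tested. These 8 had levels or ratios outside the limits of the choice, since within them they would have been falling loci.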

How the data were processed

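Per the labels' protocols, Illumina libraries were made from polyA RNA of somatic cells and gonidia. Per the file headers, the authors deposited 1 table a library with FPKM for each gene row, its confidence limits and a status. The submitters' processing notes list TopHat2 version 2, Cufflinks 2.0.1 and Cuffdiff 2. Positions are those of the deposited tables, whose genome build and annotation were not given in the sources used here.

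Fragment numbers were implied from the deposited confidence limits, taken as 2 standard deviations from the value. Median-of-ratios factors came from 4957 loci. The planned comparison on 12 libraries was made on 11. For the gonidial test, loci needed 1 FPKM or more in 3 or more libraries, and log2(FPKM + 1) was fitted with a mean per group in limma 3.58.1 (R 4.3.3, empirical Bayes with intensity trend). The threshold was 0.05 after Benjamini-Hochberg adjustment. The fit was tested on simulated data. Loci were matched with Python 3.11.15 and pandas 2.3.3. All 41 falling loci had the status OK in the tables. None of their 9 reference IDs was found among 14334 RefSeq genes, and no sequence is shown.

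Same-letter libraries deviated together from their group means, with correlations of 0.351, 0.447 and 0.202 in somatic pairs A, B and C, and 0.705 and 0.624 in gonidia pairs B and C, so the letters were taken to pair libraries within a cell type. This pairing comes from the data and not from the labels. Gonidia had only 2 pairs.

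The falling loci, the lists and the tests were chosen with earlier results of these data known. Loci were named by a rule: the 8 with the highest smallest somatic ratio, the 6 with the highest somatic level, the 6 with the lowest gonidial p among those lower and 4 among those higher under UV-B, the 3 on either side of the threshold, neighbouring loci, and any with adjusted p under 0.05 in gonidia. Loci on scaffolds 81, 42 and 19, and that on scaffold 11 from 2637141, were named outside this rule. Pseudocount, filter, scaling, libraries in the fit, linking overlap, ratio threshold and use of the letters were varied.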

Additional observations from a re-analysis of the deposited data

Results flagged for a closer look

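The locus on scaffold 28 (546002 to 560265) was picked out because its groups were ordered in opposite ways in the 2 cell types. Its limma log2 change in gonidia was 0.65, with 18.2 and 12.9 FPKM in UV-B gonidia B and C, against 9.88, 9.95 and 8.51 FPKM in white-light gonidia A, B and C. In somatic cells it had 31.3, 21.1 and 34.7 FPKM under UV-B, against 54.7, 46.4 and 51.1 FPKM in white light, and that fall was part of the choice. The difference between the cell types was not tested.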

How the results depend on the processing

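No falling locus passed adjusted p under 0.05 in gonidia in any of the settings tried, and of the 190 values of the 10 loci named for the lowest gonidial p under other settings, 188 kept their direction and stayed short of that threshold. The exceptions in direction were scaffold 2 (494784 to 498163), at -0.093 without UV-B gonidia B (range over libraries left out -0.093 to 0.58), and scaffold 18 (2047156 to 2060574), at 0.017 without UV-B gonidia C (range -0.68 to 0.017). The median gonidial log2 change of the falling loci ranged from -0.30 to 0.29 when each library was left out in turn, and the lone UV-B gonidia library is then assumed to vary like the other groups. The count of all loci lower in gonidia, 1 as reported, was 2 with no filter on low values, 0 with the 5 gonidia libraries alone, 2 with the replicate block, 0 with the replicate block on those 5 (added after seeing the data), 13 without both B gonidia libraries, and 1 to 13 with a library left out. The count higher, 0 as reported, was 4 with no filter, 1 with a pseudocount of 0.1, 19 without both B gonidia libraries, and 0 to 8 with a library left out. The number of falling loci, 41, was 21 on FPKM as deposited, 191 and 1 at ratios of 1.2 and 2, 8 with no pairing by letter, and 97 to 108 with a somatic pair left out. It was 28 with rows linked at 90% and 61 at 60%. The cause of these shifts was not tested. The gonidial values rest on 2 UV-B libraries and on a median of 369 to 872 implied fragments per falling locus in a gonidia library.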
